A study of Homo sapiens with 12 samples.

Results

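This account covers 10 chemokine ligand genes (CCL5, CCL17, CCL22, CCL20, CCL1, CXCL8, CXCL9, CXCL10, CXCL11 and CXCL16) in U-H01, a Hodgkin lymphoma (HL) cell line, and in HBL-1, a cell line from diffuse large B-cell lymphoma with an activated B-cell profile. The genes were taken by name, each from a probe set annotated to that 1 symbol. They were chosen with earlier results of these data known. All 10 were measured, by 1 probe set each, among 18417 genes tested. Chemokines are small secreted proteins that draw leukocytes along a gradient by binding receptors on their surface. In classical Hodgkin lymphoma the malignant Hodgkin Reed-Sternberg cells are a small share of the tumour and are known for secreting ligands of this family, CCL17 and CCL22 above all, that recruit T cells carrying the receptor CCR4. Many chemokine genes are known targets of the NF-kB transcription factors, and CXCL9, CXCL10 and CXCL11 are the classical interferon-induced ligands of CXCR3.

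RNA was measured on 12 single-colour arrays. The U-H01 arrays comprised 4 labelled induced and 4 uninduced, from the transduced populations B1 and B2 at each of 2 time points. The HBL-1 arrays comprised 2 induced and 2 uninduced, from 1 population, C, at 2 time points. Cells of every group carried a short hairpin RNA under doxycycline control, directed at RelB or cRel with 2 sequences for each target, and the uninduced cells carried it without doxycycline. The labels mark B2 as the second sequence and do not say which target B1, B2 or C stands for. U-H01 was grown with 20% and HBL-1 with 10% serum, so that medium and line cannot be told apart. Hairpin population and line cannot be told apart either, since B1 and B2 are U-H01 populations and C is the HBL-1 one. Replicates 1 and 2 of a U-H01 group are B1 at time points 1 and 2, and replicates 3 and 4 are B2 at the same time points. Separate cultures per array are not stated in the labels, and p-values here reflect the spread among arrays alone, part of which may be technical. Levels are the authors' log2 values after robust multi-array averaging, and a difference of 1 is a 2-fold difference in signal. Differences and their standard errors come from 1 linear model over all 12 arrays (limma), and a gene passed with a Benjamini-Hochberg adjusted p under 0.05 over all 18417 genes.

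The U-H01 arrays labelled induced stood apart from the uninduced ones over all genes. Arrays within a group correlated at 0.991 to 0.996, whereas U-H01 arrays labelled induced correlated with uninduced U-H01 arrays at 0.893 to 0.909 and with HBL-1 arrays at 0.903 to 0.915. GSTM1, a glutathione transferase gene that is deleted whole in many people, had levels of 5.14 to 5.45 in the arrays labelled induced, against 12.1 to 12.8 in the uninduced ones and 7.43 to 7.93 in HBL-1. RELB was 7.22, 7.26, 7.39 and 7.14 in the arrays labelled induced and 7.23, 7.38, 7.54 and 7.45 in the uninduced ones, a difference of -0.15 ± 0.09 that did not pass (adjusted p = 0.209, limma). HBL-1 had RELB at 7.57 and 7.40 in induced and 7.67 and 7.67 in uninduced arrays (difference -0.19, adjusted p = 0.744). REL was 10.1, 10.3, 9.95 and 10.3 in the U-H01 arrays labelled induced and 10.1, 9.98, 9.92 and 9.88 in the uninduced ones (0.20, adjusted p = 0.0716). In HBL-1 REL was 9.13 and 9.37 in induced arrays, against 9.70 and 9.78 in uninduced ones (-0.49, adjusted p = 0.121). Whether the U-H01 arrays labelled induced hold the same cells as the uninduced ones was not tested, and the U-H01 differences below are differences between labels. Without those 4 arrays there is no induction comparison in U-H01, while the results for HBL-1 and for uninduced cells could be given without them.

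Cell type markers also differed between the U-H01 groups. The Hodgkin Reed-Sternberg list of 8 genes includes CCL17. It averaged 6.72 to 7.01 per array in the arrays labelled induced, 7.76 to 7.91 in the uninduced ones and 6.74 to 6.83 over the HBL-1 arrays. In U-H01 3 genes were higher (TNFRSF8, TRAF1 and EBI3) and 4 lower (CD274, GATA3, ID2 and FUT4), with a median difference of -0.25. Over all genes, the share to set beside each marker list in this comparison was 22.4% higher and 23.5% lower. TNFRSF8 measured 11.5 to 11.7 in the arrays labelled induced, against 6.65 to 7.09 in the uninduced ones. A list of 7 measured B-cell genes averaged 7.83 to 8.26 in the arrays labelled induced, against 6.59 to 6.84 in uninduced U-H01 arrays, and 10.3 to 10.5 over the HBL-1 arrays. In that U-H01 comparison 3 of the 7 genes passed as higher and 2 as lower, with a median difference of 0.03. Markers of T and NK cells averaged 4.74 to 4.91 against 4.61 to 4.73, with 3 of 10 higher. Myeloid markers averaged 4.29 to 4.61 against 4.30 to 4.52, with 0 of 8 passing, and stromal markers 4.99 to 5.08 against 4.89 to 5.01, with 1 of 6 higher. Endothelial and epithelial markers averaged 5.31 to 5.49 against 5.27 to 5.48, with 1 of 7 higher and 1 lower. All of these averages lie below the array medians, 5.79 to 5.88, apart from the B-cell and Hodgkin Reed-Sternberg lists. The lower quartile of the arrays was 4.18 to 4.28. The part of these differences in the chemokine results was not tested.

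CXCL9, CXCL10 and CXCL11 lie next to one another on chromosome 4, and CXCL10 and CXCL11 differed between groups. CXCL9 did not pass, but it lay below the lower quartile on every array, where a difference may go unseen. Their promoter sequences are shown with those of CCL22 and CCL1, the other members that were lower in U-H01 arrays labelled induced and had a sequence at hand, so that motifs of NF-kB and of interferon-activated factors can be read beside the levels. Each is the 250 bases before the annotated start, from RefSeq on build GRCh38.p14, written 5′ to 3′ on the strand of the gene. Capitals mark matches, on either strand, to the kB consensus (the ten-letter motif of NF-kB dimers), its core GGAATTTCC, the interferon response motif (GAAA, any 2 bases, GAAA), the GAS motif TTCNNNGAA and the motif TATAAA. The positions are chr4:76007510-76007759 for CXCL9, chr4:76023498-76023747 for CXCL10 and chr4:76036071-76036320 for CXCL11, all on the minus strand, chr16:57358533-57358782 on the plus strand for CCL22 and chr17:34363234-34363483 on the minus strand for CCL1.
CXCL9: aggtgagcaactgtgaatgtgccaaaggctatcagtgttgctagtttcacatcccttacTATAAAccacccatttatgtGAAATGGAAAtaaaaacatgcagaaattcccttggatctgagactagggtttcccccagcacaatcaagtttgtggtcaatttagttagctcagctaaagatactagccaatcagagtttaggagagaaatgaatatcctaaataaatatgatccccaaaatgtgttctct
CXCL10: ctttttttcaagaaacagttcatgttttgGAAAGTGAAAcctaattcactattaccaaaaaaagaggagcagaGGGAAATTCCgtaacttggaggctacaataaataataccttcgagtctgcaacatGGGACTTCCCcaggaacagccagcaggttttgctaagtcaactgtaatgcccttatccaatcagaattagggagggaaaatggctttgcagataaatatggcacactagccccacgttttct
CXCL11: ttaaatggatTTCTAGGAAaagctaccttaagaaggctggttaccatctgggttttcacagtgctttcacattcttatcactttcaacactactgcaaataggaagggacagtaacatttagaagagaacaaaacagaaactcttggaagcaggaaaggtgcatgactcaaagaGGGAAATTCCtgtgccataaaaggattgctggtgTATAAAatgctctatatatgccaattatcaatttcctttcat
CCL22: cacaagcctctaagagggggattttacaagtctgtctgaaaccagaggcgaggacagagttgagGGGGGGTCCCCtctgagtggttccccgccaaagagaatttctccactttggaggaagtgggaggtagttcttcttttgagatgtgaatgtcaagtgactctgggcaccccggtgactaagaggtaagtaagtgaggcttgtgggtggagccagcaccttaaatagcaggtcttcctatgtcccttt
CCL1: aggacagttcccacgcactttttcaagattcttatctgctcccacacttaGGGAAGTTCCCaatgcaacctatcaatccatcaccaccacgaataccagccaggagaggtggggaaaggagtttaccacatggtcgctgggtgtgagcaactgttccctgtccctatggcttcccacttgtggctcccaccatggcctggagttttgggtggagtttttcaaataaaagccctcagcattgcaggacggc

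Of the 10 members, 7 had a promoter sequence in the table used (CCL22, CCL20, CCL1, CXCL8, CXCL9, CXCL10 and CXCL11). The kB consensus matched in 5 of these 7, against 9.96% of 35116 promoters of the same length. CXCL10 held 2 matches, GGGAAATTCC from -177 to -168 and GGGACTTCCC from -122 to -113, counted from the start. CXCL11 held GGGAAATTCC, the same 10 bases as in CXCL10, from -76 to -67. In both genes the kB core, on the minus strand, lies within this match. Of the genes not printed above, CXCL8 held the core GGAATTTCC from -91 to -83 and CCL20 matched the kB consensus from -79 to -70. The matches in CCL22, from -186 to -176, and in CCL1, from -200 to -190, are each a pair of overlapping hits.

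The core matched in 3 of the 7 promoters, against 0.413% of all promoters. The interferon response motif matched in CXCL9, as GAAATGGAAA from -171 to -162, and in CXCL10, as GAAAGTGAAA from -221 to -212, against 3.02% of all promoters. The GAS motif matched in CXCL11 alone of the 7, from -240 to -232, against 6.57%, and TATAAA in 4 of the 7, against 10.7%. The kB consensus or its core matched in CCL22, CCL1, CXCL10 and CXCL11, which were lower in U-H01 arrays labelled induced. It also matched in CCL20, which was higher, and in CXCL8, which did not pass. CXCL8 lay at 4.44 to 4.95 on all arrays, below the array medians. Whether matches go with the differences was not tested. A match is a description of letters in this window and not of binding.

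**Figure D1:**
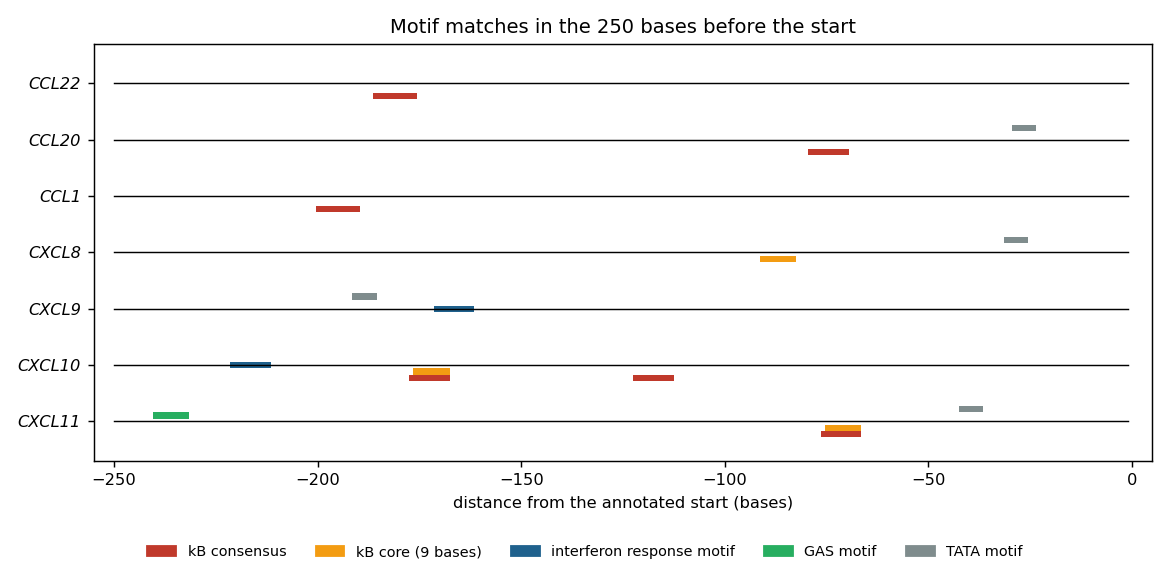
Motif matches in the 250 bases before the annotated start of the 7 members with a promoter sequence. The horizontal axis is the distance from the start in bases, each line is 1 promoter, and coloured bars are matches to the kB consensus, the kB core, the interferon response motif, the GAS motif and the TATA motif, drawn at different heights so that overlapping matches can be seen. CXCL10 and CXCL11 show the kB core inside a kB consensus match, at different distances from the start.

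In U-H01, 6 of the 10 ligands were lower in arrays labelled induced and 1 was higher, beside 23.5% of all genes lower and 22.4% higher. Centring each array on its median adds 0.15 to every U-H01 difference and turns the split of all genes from 4118 higher and 4321 lower into 7517 higher and 3336 lower, while the same 6 ligands were lower. CCL5, CCL22, CCL1, CXCL10, CXCL11 and CXCL16 were lower by 1.90-fold to 9.52-fold, and in each of them every array labelled induced lay below every uninduced one. Such separation in either direction was found in 41.1% of all genes. The median difference of the 10 was -1.21, and the median of all genes was 0.03. Because the 10 were chosen with earlier results known, these counts and medians describe them and are no test of the set. In HBL-1, 0 of the 10 passed in limma, beside 0.608% of all genes, and 2 had an unadjusted p under 0.05. With bulk RNA, fewer cells making a transcript and less transcript per cell cannot be told apart.

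**Figure D2:**
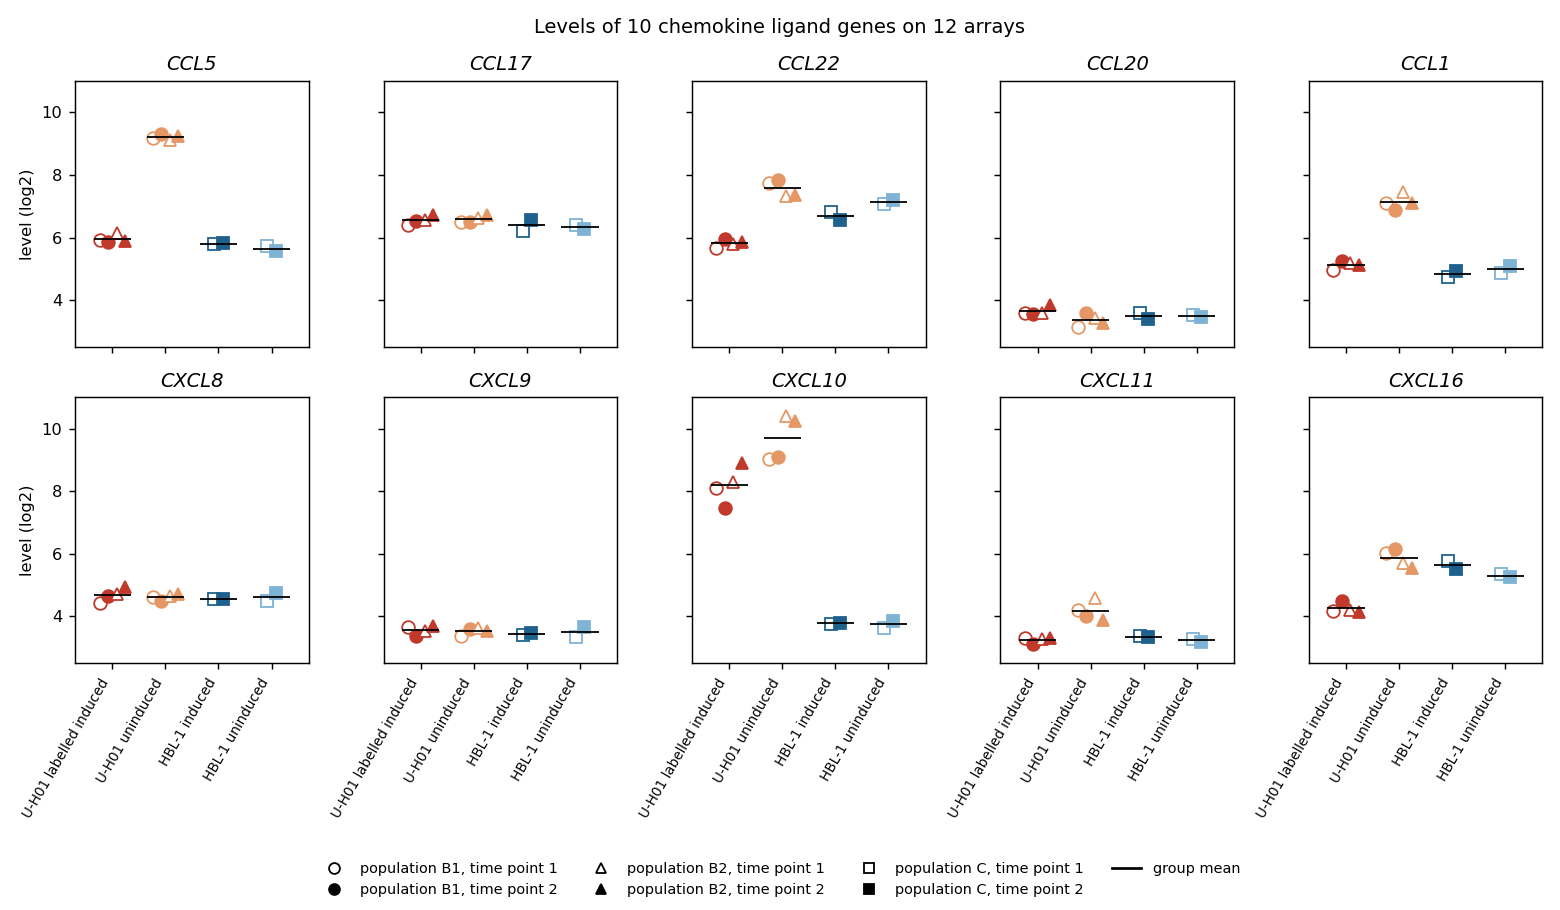
Level (log2) of each of the 10 genes on every array, with 1 panel per gene and 1 point per array. Columns are the 4 groups, shapes the populations, open points time point 1 and filled points time point 2, and bars the group means. CCL5, CCL22, CCL1, CXCL10, CXCL11 and CXCL16 have their highest mean in uninduced U-H01, CXCL10 remains high in U-H01 arrays labelled induced, and CCL17, CXCL8 and CXCL9 lie at like levels throughout.

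CCL5, also called RANTES, draws T cells, monocytes and eosinophils. Its level was 5.93, 5.86, 6.14 and 5.90 in the U-H01 arrays labelled induced, against 9.19, 9.29, 9.12 and 9.23 in the uninduced ones. The difference was -3.25 ± 0.09, or 9.52-fold lower (adjusted p = 1.16e-11), the largest among the 10 members in this comparison. HBL-1 had 5.798 and 5.82 in induced and 5.71 and 5.58 in uninduced arrays, a difference of 0.16 ± 0.12 that did not pass (adjusted p = 0.793). Uninduced U-H01 thus stood apart from the other 3 groups, whose means lay between 5.65 and 5.96 and whose ranges, though close, did not overlap either. The U-H01 arrays labelled induced exceeded induced HBL-1 arrays by 0.15 ± 0.11, which did not pass (adjusted p = 0.338).

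CCL22 and CCL17 are the ligands of CCR4, the receptor of type 2 helper and regulatory T cells. CCL22 measured 5.68, 5.96, 5.79 and 5.87 in the U-H01 arrays labelled induced, against 7.75, 7.84, 7.34 and 7.35 in the uninduced ones. It was lower by a difference of -1.75 ± 0.11 or 3.36-fold (adjusted p = 3.20e-08). In HBL-1 it measured 6.80 and 6.56 in induced arrays, against 7.07 and 7.20 in uninduced arrays. The 2 HBL-1 groups did not overlap, but the difference of -0.45 ± 0.15 did not pass over all genes (95% interval -0.78 to -0.11, adjusted p = 0.307), and non-overlap occurred in 41.3% of all genes there. With HBL-1 fitted alone, on 1 residual degree of freedom, the adjusted p was 0.0133, and it was 0.0482 with all 6 comparisons adjusted together.

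CCL17, also called TARC, is a serum marker of classical Hodgkin lymphoma. Its level was 6.42 to 6.72 in U-H01 arrays labelled induced, against 6.50 to 6.72 in uninduced ones, and 6.22 and 6.55 in induced against 6.41 and 6.28 in uninduced HBL-1 arrays. The 12 arrays spanned 0.50, and all 4 group ranges overlapped their neighbours in order of level. The U-H01 difference was -0.04 ± 0.09 (95% interval -0.22 to 0.15, adjusted p = 0.786), and it was 0.11 when each array was centred on its median. The gene lies near CCL22 on chromosome 16, and the interval of its difference lies above that of CCL22, -1.98 to -1.51.

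CCL1 is the ligand of CCR8, a receptor of regulatory T cells. Its level was 4.95, 5.25, 5.18 and 5.14 in the U-H01 arrays labelled induced, against 7.11, 6.89, 7.47 and 7.10 in the uninduced ones, a difference of -2.01 ± 0.11 or 4.03-fold (adjusted p = 6.89e-09). HBL-1 arrays had 4.74 and 4.93 when induced and 4.88 and 5.10 when uninduced, and those ranges overlapped. Uninduced U-H01 lay apart from the other groups, whose ranges overlapped their neighbours in order of level.

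CCL20, the ligand of CCR6, was the 1 member that was higher. It measured 3.59, 3.57, 3.60 and 3.84 in the U-H01 arrays labelled induced, against 3.15, 3.59, 3.43 and 3.26 in the uninduced ones. The ranges overlapped, and 1 of 4 pairs, B1 at time point 2, went the other way by -0.02. The difference of 0.29 ± 0.10 passed (adjusted p = 0.0307) but lost its call when U-H01 uninduced replicate 1 or 4 or labelled induced replicate 1, 3 or 4 was left out, with adjusted p up to 0.142. All of its levels lay below the lower quartile of the arrays. HBL-1 showed 3.58 and 3.41 in induced and 3.52 and 3.47 in uninduced arrays, a difference of -0.0004 with an interval of -0.31 to 0.31.

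CXCL10, also called IP-10, recruits activated T and NK cells through CXCR3. It measured 8.10, 7.48, 8.29 and 8.91 in the U-H01 arrays labelled induced, against 9.02, 9.10, 10.4 and 10.3 in the uninduced ones. The groups did not overlap, but the highest array labelled induced and the lowest uninduced one were close, and the difference was -1.50 ± 0.16 or 2.83-fold (adjusted p = 5.97e-06). In HBL-1 it was at 3.77 and 3.80 in induced, against 3.64 and 3.86 in uninduced arrays, below the lower quartile of the arrays. It had the widest range of the members, 6.76 over the 12 arrays. Unlike CCL5 and CCL1, whose levels in U-H01 arrays labelled induced were near those of HBL-1, CXCL10 was 4.41 ± 0.20 higher there than in induced HBL-1 (adjusted p = 2.42e-09), where its low level may understate the difference.

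CXCL11, also called I-TAC, binds CXCR3 as well. Its level was 3.31, 3.13, 3.27 and 3.30 in the U-H01 arrays labelled induced, against 4.21, 4.02, 4.58 and 3.89 in the uninduced ones, a difference of -0.93 ± 0.10 or 1.90-fold (adjusted p = 9.04e-06). HBL-1 measured 3.37 and 3.33 in induced and 3.28 and 3.19 in uninduced arrays. The uninduced U-H01 arrays themselves lay about the lower quartile of the arrays, and all other arrays lay below it. This fold may therefore understate the difference. CXCL9, also called MIG and the third CXCR3 ligand, ranged from 3.36 to 3.71 over all 12 arrays, below the lower quartile of each. Its U-H01 difference was 0.03 ± 0.09, with a 95% interval of -0.18 to 0.23 (adjusted p = 0.860).

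CXCL16 is made as a membrane protein whose ectodomain is shed, and attracts T cells carrying CXCR6. It measured 4.18, 4.51, 4.20 and 4.14 in the U-H01 arrays labelled induced, against 6.04, 6.16, 5.72 and 5.54 in the uninduced ones, and was lower by a difference of -1.61 ± 0.10 or 3.04-fold (adjusted p = 3.12e-08). The levels in the arrays labelled induced were about the lower quartile of the arrays, so this size may be understated. In HBL-1 the direction was the opposite: 5.76 and 5.51 in induced arrays, against 5.35 and 5.25 in uninduced arrays. That difference of 0.33 ± 0.14 did not pass over all genes (95% interval 0.03 to 0.64, adjusted p = 0.452). CXCL8, or interleukin-8, the neutrophil attractant, ranged from 4.44 to 4.95 over the 12 arrays, with a U-H01 difference of 0.06 ± 0.09 (95% interval -0.13 to 0.25, adjusted p = 0.641).

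**Figure D3:**
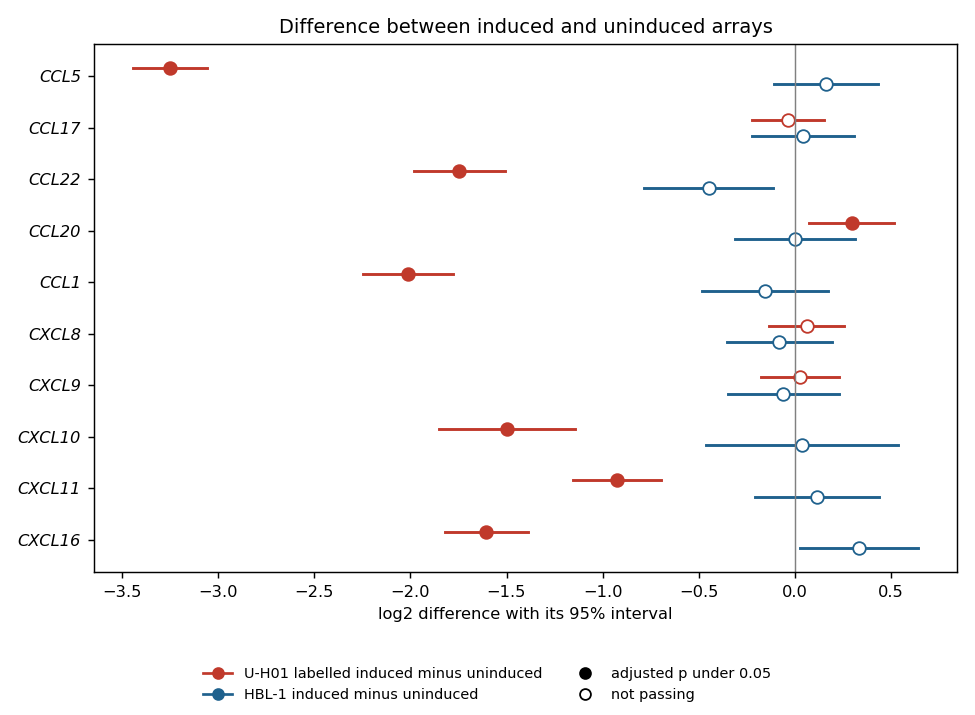
Log2 difference between induced and uninduced arrays for each gene, with U-H01 labelled induced minus uninduced in red above HBL-1 induced minus uninduced in blue. Points are estimates of the model over 12 arrays, bars their 95% intervals, and filled points passed an adjusted p of 0.05. In U-H01 6 genes lie between -3.25 and -0.93 and CCL20 at 0.29, while no HBL-1 point is filled.

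The difference between the lines in this change, which is also one between populations B1 and B2 and population C, was tested directly. It passed for 6 of the 10 members, all with a more negative value in U-H01, beside 17.0% of all genes lower and 15.5% higher in the same test (3134 and 2850 genes, and 2488 and 4081 with arrays centred). These were the 6 genes that were lower in U-H01. CCL5 differed by -3.41 ± 0.15 and CXCL16 by -1.94 ± 0.17 (adjusted p = 4.79e-09 and 2.53e-06). CCL1 differed by -1.85, CXCL10 by -1.53, CCL22 by -1.30 and CXCL11 by -1.04, with adjusted p of 0.000996 or less. CCL20, at 0.30 ± 0.18, did not pass (adjusted p = 0.245).

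The 6 lower genes were lower in each U-H01 population. For CCL5 the difference was -3.35 in B1 and -3.15 in B2, for CCL1 -1.90 and -2.12, for CCL22 -1.98 and -1.51, for CXCL16 -1.75 and -1.46, for CXCL10 -1.27 and -1.73 and for CXCL11 -0.90 and -0.95, and all passed in both populations, beside 20.9% of all genes lower in B1 and 19.4% in B2. The difference between B2 and B1 in this change passed for 0 of the 10 by limma, beside 0.608% of all genes, with 1 at an unadjusted p under 0.05 (CCL22, 0.47 ± 0.17). All 4 pairs of the same population and time point went down for each of the 6 genes. For CXCL10 the pairs ran from -2.11 in B2 at time point 1 to -0.92 in B1 at time point 1. Between time points 0 of the 10 passed in either line by limma, beside 0.0% of all genes, with 1 in U-H01 and 0 in HBL-1 at an unadjusted p under 0.05.

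CXCL10 was the 1 member whose level differed between the uninduced populations. It stood at 10.4 and 10.3 in uninduced B2, against 9.02 and 9.10 in uninduced B1, a difference of 1.27 ± 0.21 or 2.42-fold (adjusted p = 0.00847), beside 3.44% of all genes passing in that comparison. In arrays labelled induced the values were 8.29 and 8.91 in B2, against 8.10 and 7.48 in B1, a difference of 0.81 ± 0.21 that did not pass (adjusted p = 0.256), beside 0.109% of all genes passing. CCL22 and CXCL16 were at -0.45 ± 0.12 and -0.47 ± 0.13 for uninduced B2 minus B1 and did not pass (adjusted p = 0.0661 and 0.0740).

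Between the uninduced lines, 6 of the 10 members were higher in U-H01 and 0 were lower, beside 20.8% of all genes higher and 22.1% lower. In 7 of the 10 every U-H01 array lay above every HBL-1 array, beside 55.3% of all genes whose ranges did not overlap. CXCL10 differed most, by 5.94 ± 0.20 or 61.5-fold (adjusted p = 1.36e-10), a size that may be understated because the HBL-1 levels lay below the lower quartile of the arrays, followed by CCL5 at 3.56 ± 0.11 or 11.8-fold and CCL1 at 2.15 ± 0.13 or 4.44-fold. CXCL11 was higher by 0.94 ± 0.13 and CXCL16 by 0.56 ± 0.12. CCL22 was higher by 0.44 ± 0.13 (adjusted p = 0.0173). The CCL22 call was lost without U-H01 uninduced replicate 1 or 2 or HBL-1 uninduced replicate 1 (0.25, adjusted p = 0.422, without that HBL-1 array), and the CXCL16 call without HBL-1 uninduced replicate 1 (0.49, adjusted p = 0.0867). CCL17 at 0.25 ± 0.11 did not pass (adjusted p = 0.0817) and passed without HBL-1 uninduced replicate 1 (0.47, adjusted p = 0.0260). Without the 4 U-H01 arrays labelled induced, 6 members passed, beside 46.9% of all genes.

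Between U-H01 arrays labelled induced and induced HBL-1 arrays, 1 member was higher and 2 were lower, beside 18.0% of all genes higher and 20.6% lower. Ranges did not overlap in 3 members higher and 3 lower, beside 48.5% of all genes. CXCL10 was higher, as given above. CXCL16 was lower by a difference of -1.37 ± 0.12 (adjusted p = 1.30e-06) and CCL22 by one of -0.86 ± 0.13 (adjusted p = 0.000178). The CXCL16 size may be understated, as its levels in U-H01 arrays labelled induced were about the lower quartile of the arrays. CCL1 at 0.29 ± 0.13 did not pass (adjusted p = 0.101), and passed at 0.37 when arrays were centred on their medians (adjusted p = 0.0332). The 2 comparisons of lines use different arrays, and both are given side by side in the plot of differences between lines.

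**Figure D4:**
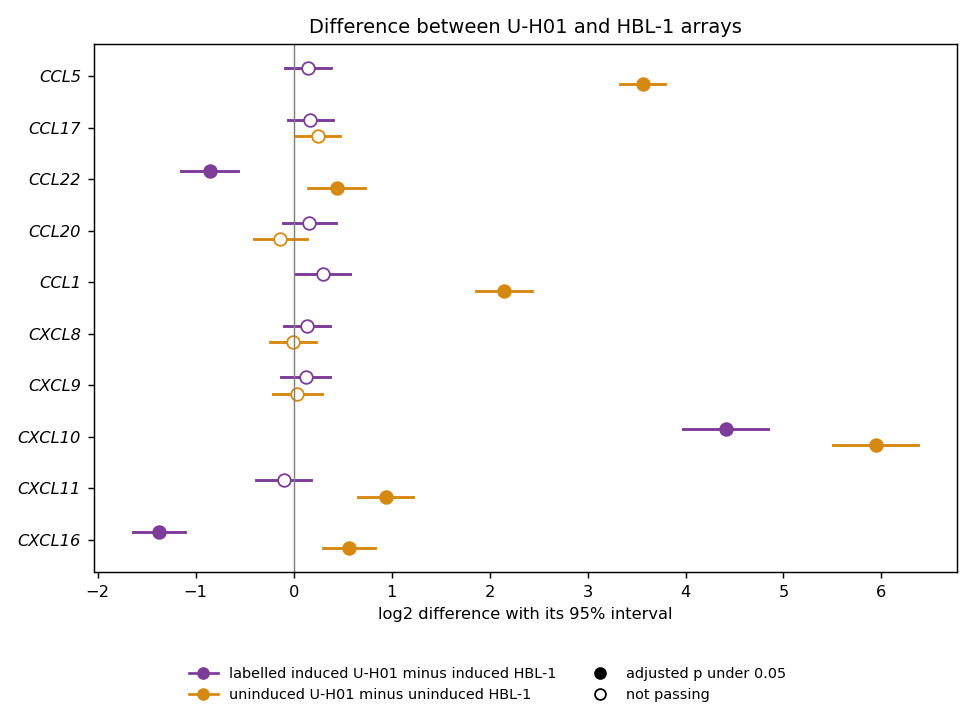
Log2 difference between U-H01 and HBL-1 for each gene, with labelled induced U-H01 minus induced HBL-1 in purple above uninduced U-H01 minus uninduced HBL-1 in orange. Points are model estimates, bars 95% intervals, and filled points passed an adjusted p of 0.05. CXCL10 is far to the right in both, CCL5 and CCL1 only in the uninduced comparison, and CCL22 and CXCL16 lie on opposite sides of 0 in the 2 comparisons.

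Receptors of these ligands were followed in 8 genes. In U-H01 arrays labelled induced 1 receptor was higher and 2 were lower, beside 22.4% of all genes higher and 23.5% lower. The median difference was 0.02. CCR4, the receptor of CCL17 and CCL22, measured 8.27, 7.32, 7.59 and 7.63 in the U-H01 arrays labelled induced, against 6.33, 6.63, 6.72 and 6.49 in the uninduced ones. It was higher there by 1.16 ± 0.16 (adjusted p = 5.63e-05), while its ligand CCL22 was lower in the same arrays. HBL-1 had 3.73 to 3.94, so that uninduced U-H01 exceeded uninduced HBL-1 by 2.71 (adjusted p = 1.90e-07). That size may be understated, because these HBL-1 levels lay below the lower quartile of the arrays. CXCR3 differed by -0.42 and CCR6 by -0.30 in U-H01, and CCR1, at 0.28, did not pass (adjusted p = 0.0898). In HBL-1, 0 of the 8 passed in limma, beside 0.608% of all genes, with 0 at an unadjusted p under 0.05.

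Among 26 other chemokine ligands measured, 3 were lower and 1 was higher in U-H01 arrays labelled induced, with a median difference of 0.03. These counts stand beside 23.5% of all genes lower and 22.4% higher. CCL3, a ligand of CCR1 also called MIP-1 alpha, measured 5.68, 6.20, 5.59 and 6.31 in the U-H01 arrays labelled induced, against 8.58, 8.84, 8.84 and 8.54 in the uninduced ones, a difference of -2.75 ± 0.14 (adjusted p = 3.35e-09). The gene has near-identical copies, so its signal may be shared. CCL2, the monocyte attractant MCP-1, measured 4.57, 4.76, 4.72 and 4.65, against 5.71, 6.32, 6.75 and 7.06 in the uninduced arrays, a difference of -1.78 ± 0.16. CXCL13, at -0.26, was lower and CCL25, at 0.26, was higher, sizes not far above the 0.15 that centring adds to every U-H01 difference. Centring shrinks the difference of CXCL13 and enlarges that of CCL25. CXCL13 lay below the lower quartile on every array, and its U-H01 ranges overlapped. In HBL-1, 0 of the 26 passed in limma, beside 0.608% of all genes, with 0 at an unadjusted p under 0.05. Between uninduced lines CCL3 and CCL2 were higher in U-H01 by 2.33 and 1.85, and CCL28, at -1.41, and CCL4, at -0.46, were lower. CCL4 lay below the lower quartile on every array. CCL28 lay about the lower quartile in U-H01, so its size may be understated.

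Genes of interferon-gamma signalling were followed in a list of 7. JAK2, a kinase of the interferon-gamma receptor, measured 6.30, 6.21, 6.06 and 6.0 in the U-H01 arrays labelled induced, against 9.61, 9.45, 9.29 and 9.29 in the uninduced ones, a difference of -3.27 ± 0.08 (adjusted p = 7.68e-12). JAK1 was higher by 2.04 and the receptor chain gene IFNGR1 by 1.07, and IRF9 was lower by a difference of -0.50. IRF1 and IFNGR2 did not pass, at 0.29 and -0.11, and IFNG, the interferon gene itself, differed by 0.09 (adjusted p = 0.440, limma). IFNG lay at 3.36 to 3.71, below the lower quartile on every array, where a difference may go unseen. In HBL-1, JAK2 was at 6.36 and 6.90 in induced and 5.84 and 5.94 in uninduced arrays. It was the 1 gene of the list to pass, higher by 0.74 ± 0.12 (adjusted p = 0.0155, limma), beside 0.608% of all genes. CXCL10, at 0.04, did not pass there, but it lay below the lower quartile on every HBL-1 array, where a difference may go unseen.

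Proteases that act on chemokines were followed too. DPP4, which trims the amino end of CXCL10, CXCL11 and CCL22, measured 4.32, 4.01, 3.93 and 3.93 in the U-H01 arrays labelled induced, against 10.8, 10.9, 10.5 and 10.3 in the uninduced ones, a difference of -6.59 ± 0.10 (adjusted p = 1.85e-13). Its levels in the arrays labelled induced were about the lower quartile of the arrays, so the size may be understated. ADAM10, which sheds CXCL16, was higher by 0.91 ± 0.09 and ADAM17 was lower by a difference of -0.98 ± 0.10, and MMP9 did not pass. Of the NF-kB subunit genes in U-H01, NFKB2 was lower by a difference of -0.56 and RELA higher by 0.24, while RELB, REL and NFKB1 did not pass.

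**Figure D5:**
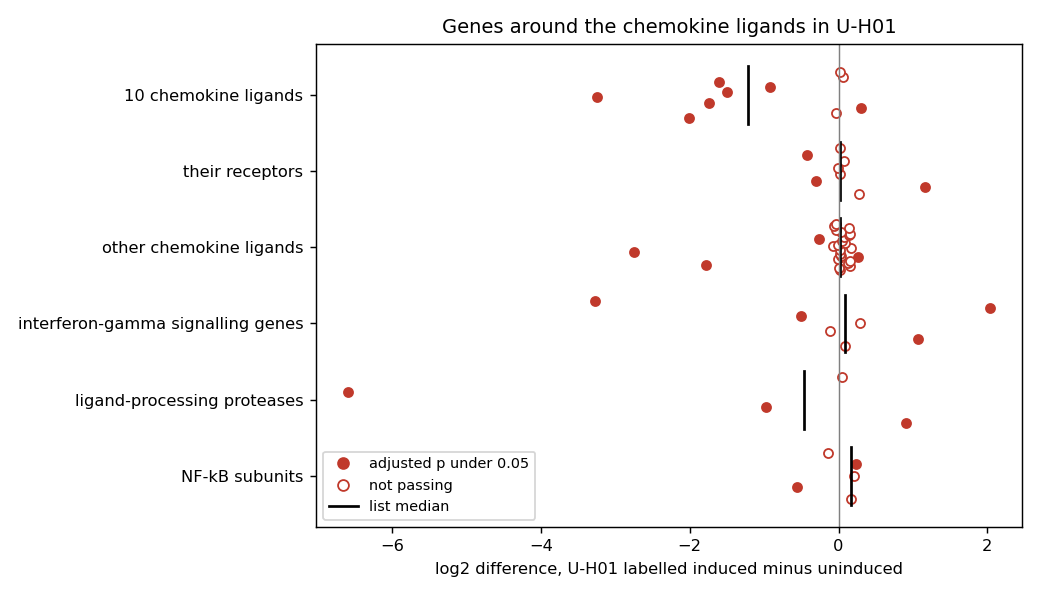
Log2 difference of U-H01 arrays labelled induced minus uninduced ones, with 1 point per gene in each of 6 lists. Filled points passed an adjusted p of 0.05 and black bars are list medians. The median of the 10 ligands is -1.21, against 0.02 for their receptors and 0.03 for the other ligands, among which CCL3 and CCL2 lie at -2.75 and -1.78. The ligands and pathway lists were chosen with earlier results of these data known, so the medians are a description and no test.

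For the 5 members whose range over the 12 arrays exceeded 2, the genes with the most similar profile were those with the smallest root-mean-square difference after each gene was centred on its own mean. The arrays fall into clusters by group, so that many genes share a profile. CCL5 was nearest to AGMO (0.14) and HOMER2 (0.15), against a root-mean-square of 1.59 of its own values about their mean. CCL1 was nearest to TEAD1 (0.15) and PLPP3 (0.16), CCL22 to NQO2 (0.16) and ZNF14 (0.17) and CXCL16 to CSF2RB (0.15) and SETBP1 (0.15), against 1.02, 0.748 and 0.711 for the values of CCL1, CCL22 and CXCL16. CXCL10 was nearest to VIM (0.56) and RASGRP1 (0.63), against 2.56 for its own values.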

How the data were processed

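The authors deposited log2 expression values for 12 arrays. Per the submitters' processing notes, RMA and Partek were used; their versions and the genome build were not given in the sources used here. RMA brings arrays to like distributions, so that a shift of all genes one way can be hidden. Of 33297 probe sets, 19460 had 1 gene symbol, 1754 several and 12083 none in the platform annotation; only the first were used. Entrez identifiers of 19429 matched RefSeq (GRCh38.p14), which changed 0 symbols. In 769 of 18417 genes with several probe sets, the one with the highest mean was taken. No 2 arrays were identical (0 pairs). Precision is limited by how few arrays there are.

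Groups came from the sample titles. A linear model with population, time point within line and induction within line (7 terms, 5 residual degrees of freedom) was fitted over all 12 arrays with limma 3.58.1 (lmFit, eBayes) in R 4.3.3. An 8-term model with separate induction terms for B1 and B2 served for comparisons of populations. Tests were two-sided, with Benjamini-Hochberg adjustment over all genes within each of 6 comparisons. The procedure was tested on simulated data. Figures used matplotlib 3.10.9 and Python 3.11.15.

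Each population was divided into a part with and a part without doxycycline, per the labels' protocols, so induced and uninduced arrays were paired by population and time point. Within such pairs, departures from the group mean correlated at 0.14 and -0.03 in B1, 0.10 and 0.03 in B2 and 0.10 in HBL-1. The members, marker lists and pathway lists were chosen with earlier results of these data known. Named beside the members are subunit genes, up to 4 genes of each list with the smallest p, the 2 genes nearest in profile and GSTM1. Alternatives covered the replicate block, other covariates, lines fitted alone, moderation, filters, scaling, adjustment and leaving out each array.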

Additional observations from a re-analysis of the deposited data

Results flagged for a closer look

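The change with induction differed between the lines by its own test in 6 genes, with the U-H01 change minus the HBL-1 change at -3.41 for CCL5, -1.94 for CXCL16, -1.85 for CCL1, -1.53 for CXCL10, -1.30 for CCL22 and -1.04 for CXCL11. The U-H01 values in these differences rest on the arrays labelled induced, which stood apart from the uninduced ones over all genes. Line and hairpin population cannot be told apart in these differences. CXCL16 had opposite signs in the lines, at -1.61 in U-H01 and 0.33 in HBL-1, where the value did not pass. Single arrays far from the rest of their group of 4 were found in 2 of 20 groups examined, and chance gives about 1 in 20. They were CCL20 at 3.84 in U-H01 labelled induced replicate 4 and CXCL16 at 4.51 in U-H01 labelled induced replicate 2. Without that CXCL16 array its difference still passed, whereas that of CCL20 did not pass without replicate 4 (0.24, adjusted p = 0.102).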

How the results depend on the processing

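Of 1234 values of the members under alternatives, 1172 kept their direction and side of the threshold, 47 turned sign, 10 lost and 5 gained a call, and 19 of 22 calls held under every alternative run (the exceptions are CCL20 in U-H01 and CCL22 and CXCL16 between uninduced lines). Levels near the floor of the arrays limit CXCL9, CCL20, CXCL11, CXCL13, CCL4, HBL-1 CXCL10 and DPP4 in U-H01 labelled induced.

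With only genes above the median level, 4 members remained in the fit and 3 passed in U-H01 with induction, 3 in the difference between the lines and 3 between uninduced lines, beside 68.5%, 51.2% and 64.3% of all genes in that fit. Fewer members were tested there. In HBL-1, 1 member (CCL22) passed with each line fitted alone and 1 with the 6 comparisons adjusted together. CCL20 in U-H01 lost its call with every probe set tested (adjusted p = 0.0531). With the replicate block, which pairs arrays by population and time point, 60 of 60 verdicts on members were unchanged, with 7 members passing in U-H01, 0 in HBL-1 and 6 in the difference between the lines, beside 44.5%, 0.489% and 31.2% of all genes. In this balanced design the block cannot move a difference, so only its adjusted p could change. CCL1 between labelled induced U-H01 and induced HBL-1 passed with quantile normalization repeated (0.35, adjusted p = 0.0475).

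With quantile normalization repeated and with arrays centred, the sign turned for CCL17 in U-H01 (0.090 and 0.11), CCL20 in HBL-1 (0.0043 and 0.0074) and CCL17 in the difference between the lines (0.043 and 0.067). With arrays centred it also turned for CXCL9 in the difference between populations (-0.0050) and between uninduced lines (-0.028). None of these values passed in any of these settings.

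Leaving out 1 array in turn, signs turned for values that did not pass in the fit of all arrays. These ran from -0.041 to 0.097 for CXCL9 in U-H01. In HBL-1 they ran from -0.19 to 0.27 for CCL17, -0.066 to 0.065 for CCL20, -0.20 to 0.038 for CXCL8, -0.17 to 0.045 for CXCL9 and -0.062 to 0.13 for CXCL10. In the difference between the lines they ran from -0.30 to 0.15 for CCL17 and -0.019 to 0.19 for CXCL9. In the difference between populations they ran from -0.056 to 0.054 for CCL17, -0.044 to 0.37 for CCL20, -0.49 to 0.032 for CCL1, -0.17 to 0.20 for CXCL9 and -0.34 to 0.24 for CXCL11. Between uninduced lines they ran from -0.13 to 0.11 for CXCL8 and -0.069 to 0.14 for CXCL9, and between the induced ones from -0.056 to 0.40 for CCL17.

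Over all genes, HBL-1 gave 112 calls, against 945 with the line fitted alone, 796 adjusted together, 58 with every probe set, 322 without the U-H01 group labelled induced (chosen after seeing the data, as was leaving out the uninduced U-H01 group) and 8 to 149 leaving out 1 array. The difference between populations gave 112, against 44, 930 and 3 in the first 3 of these, 222 with trend and robust options and 20 to 140 leaving out 1 array. U-H01 gave 8439 of 18417 genes (45.8%), against 12781 of 33297 with every probe set (38.4%). Without either U-H01 group, 0 members passed in HBL-1 by limma. Members had 1 probe set each, so other probe sets could not be tried.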
